A study of Homo sapiens with 6 samples.

Results

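The IkB family of NF-kB inhibitors was examined by RNA-seq in the human glioblastoma line U251, an established cell line, with or without exposure to tumor necrosis factor-α. The family was taken as 6 genes chosen by name, NFKBIA, NFKBIB, NFKBIE, NFKBIZ, NFKBID and BCL3, out of 58735 genes listed. The NC group (n = 3) received sterile deionized water of the same volume as the cytokine, and the TNF-α group (n = 3) received recombinant human TNF-α at 10 ng/mL. Both groups were grown to near confluence, treated for 24 h. Each group was described as 3 independent biological replicates of this 1 cell line, so the p-values below measure the spread between these libraries. All 6 genes reached an FPKM (fragments scaled to gene length and library size, a level per length) of at least 1 in all 6 libraries, and all 6 were among the 12136 genes tested.

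NF-kB transcription factors are dimers of RELA, RELB, REL and the proteins made from NFKB1 and NFKB2. The classical IkB proteins, encoded by NFKBIA, NFKBIB and NFKBIE, hold such dimers in the cytoplasm through ankyrin repeats. When TNF-α binds its receptor, the IkB kinase complex phosphorylates these inhibitors on a pair of serines, they are ubiquitinated and degraded, and the released NF-kB switches on its targets. NFKBIA is itself such a target, so that new IkB-alpha closes a feedback loop. The atypical members BCL3, NFKBIZ and NFKBID act in the nucleus, where they bind mainly p50 or p52 dimers on DNA and can raise or lower transcription of individual genes. In glioblastoma, NF-kB activity is known for its link to the mesenchymal state and to inflammatory signals from the tumor surroundings.

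The coding bases of the phosphorylation motif are shown for a pair of the classical members, NFKBIA and NFKBIE, as an illustration of the site that the kinases act on. In the GENCODE release 29 coding sequences (GRCh38), the residues Asp-Ser-Gly, any pair of residues, then Ser were found once in NFKBIA (serines 32 and 36 of 317 residues) and once in NFKBIE (serines 157 and 161 of 500). The codons of both serines are in capitals.
NFKBIA: gacAGCggcctggacTCC
NFKBIE: gacTCTggcattgagTCT
No comparison between members was drawn from this motif.

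Promoter windows are shown for the members with a κB site, the DNA element that NF-kB dimers bind. The 250 bases before the RefSeq transcription start (GRCh38.p14) were searched on both strands for the κB consensus of 10 bases, and 5 of the 6 genes had a window. Each of the following windows held 1 match, in capitals, at -81 to -72 from the start on the opposite strand in NFKBIA (chr14:35404750-35404999, minus strand) and at -223 to -214 on the same strand in NFKBIZ (chr3:101827740-101827989, plus strand).
NFKBIA: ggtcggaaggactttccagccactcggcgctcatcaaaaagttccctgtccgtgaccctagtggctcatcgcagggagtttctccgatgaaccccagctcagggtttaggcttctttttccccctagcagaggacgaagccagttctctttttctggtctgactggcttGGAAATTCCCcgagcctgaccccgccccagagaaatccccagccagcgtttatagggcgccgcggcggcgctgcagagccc
NFKBIZ: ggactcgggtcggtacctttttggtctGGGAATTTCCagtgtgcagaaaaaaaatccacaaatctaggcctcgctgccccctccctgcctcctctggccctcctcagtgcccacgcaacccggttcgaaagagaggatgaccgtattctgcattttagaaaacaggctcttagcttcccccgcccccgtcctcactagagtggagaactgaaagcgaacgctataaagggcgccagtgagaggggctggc
No match to these letters was found in the windows of NFKBIB, NFKBID and BCL3. Of 35116 promoter windows of the same length, 9.96% held at least 1 match.

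The reads in genes numbered between 31992167 and 37897044 per library. TNF-α replicates 2 and 3 stood apart from the other 4 libraries. In both, 16.6% and 17.9% of the reads fell in genes of more than 8 kb, compared with 28.8% to 29.1% for the 3 NC libraries and TNF-α replicate 1. Ribosomal protein genes took 7.30% and 6.26% in these libraries, against 2.62% to 2.90% in the others. The FPKM of all genes summed to 463340 and 408175 in TNF-α replicates 2 and 3, to 266716 in replicate 1 and to 256373 to 265942 in the NC group. The library size used in the FPKM was 0.693 and 0.759 of the reads in genes in TNF-α replicates 2 and 3. In the other 4 libraries it was 0.925 to 0.959 of them, so the divisor also differed between the treated libraries. FPKM orders among the treated libraries therefore depend on the scale, and TPM (FPKM scaled to the same sum in each library) are given beside them. Results are also given after adjustment for GC content and transcript length, for TNF-α replicate 1 alone and without TNF-α replicate 1. Of the glial markers, VIM, NES, SOX2 and CD44 were expressed and S100B was at 0 in 4 of 6 libraries, while GFAP, the astrocyte filament gene, fell from 8.24 ± 1.19 to 2.19 ± 0.537 FPKM (limma adjusted p = 0.021, up to 0.166 with 1 library left out). VIM measured 343 ± 18.7 FPKM in the NC group and 753 ± 283 in the TNF-α group. SOX2 measured 62.0 ± 3.87 and 36.9 ± 18.5 FPKM, so the markers moved in both directions (limma adjusted p = 0.195 for VIM and for SOX2). The summed FPKM of the 6 glial markers ran from 568 to 618 in the NC group and from 675 to 1205 in the TNF-α group. That of 10 leukocyte, endothelial and epithelial markers ran from 0.777 to 1.05 and from 0.767 to 1.84, with PTPRC and CD3E at 0 throughout.

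To learn which inhibitor transcripts prevailed in these glioblastoma cells at rest, the members were ordered by their RNA level per length in the NC group. NFKBIB came first at 19.2 ± 1.36 FPKM (mean ± SD, n = 3), followed by NFKBIA at 13.6 ± 0.735. NFKBIE at 5.55 ± 0.649 and BCL3 at 5.49 ± 0.409 overlapped in their values. NFKBIZ at 2.14 ± 0.281 and NFKBID at 1.90 ± 0.0565 were the lowest, and their values overlapped as well. After TNF-α the order was NFKBIA, NFKBIB, NFKBIE, BCL3, NFKBIZ and NFKBID, with NFKBIA the highest of the 6 in each TNF-α library. The values of NFKBIB (28.9 to 68.6 FPKM) and NFKBIE (25.7 to 59.5) overlapped in that group, as did those of NFKBIZ (2.09 to 5.61) and NFKBID (2.09 to 4.19).

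**Figure D1:**
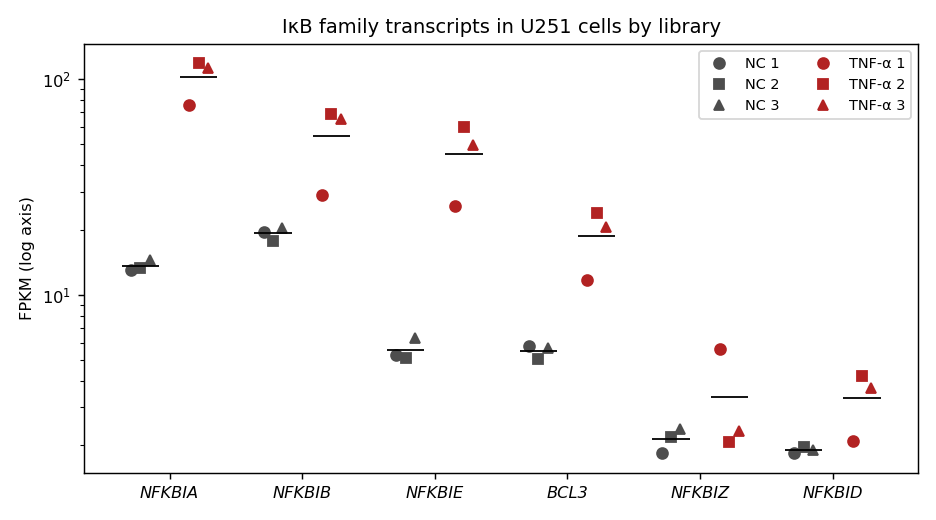
FPKM of the 6 IkB family genes on a shared log axis, with dark points for the 3 NC libraries, red points for the 3 TNF-α libraries, 1 symbol per replicate number (which does not pair the groups) and a line at each group mean. All red points lie above all dark points except for NFKBIZ, where TNF-α replicate 1 alone stands out at 5.61.

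To examine how TNF-α altered the family, the groups were compared with limma on log2(FPKM + 1), with p-values adjusted over all genes tested. NFKBIA and NFKBIE rose, so 2 of the 6 genes passed the threshold of an adjusted p under 0.05 as higher, where 0.717% of all genes tested did. None of the 6 passed as lower, as 0.297% of all genes did. At an unadjusted p under 0.05, 5 of the 6 were higher and 0 lower, against 12.3% and 11.9% of all genes tested. NFKBIB, BCL3 and NFKBID had higher means in the TNF-α group without passing. In 5 of the 6 genes every TNF-α library lay above every NC library, which held for 14.8% of all genes tested. It held for the same number of the 6 in TPM, and for 6.14% of all genes tested. The median log2 fold change of the 6 genes was 1.45, against 0.04 over all genes tested, and all 6 were above 0. In such bulk RNA, a change in the share of cells that express a gene and a change of RNA per cell cannot be told apart.

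NFKBIA (ENSG00000100906, chr14:35401511-35404749, minus strand), which encodes IkB-alpha, the rapidly resynthesized inhibitor of RELA dimers, measured 13.0, 13.3 and 14.4 FPKM in NC replicates 1 to 3 and 75.3, 118 and 112 FPKM in TNF-α replicates 1 to 3. Behind these values stood 1033 to 1117 reads in the NC group and 5740 to 7242 in the TNF-α group. All TNF-α libraries lay far above all NC libraries, with replicate 1 the lowest of them in FPKM. In TPM this order turned, with 282, 254 and 275 in TNF-α replicates 1 to 3 and 50.2 to 54.2 in the NC group. The mean went from 13.6 ± 0.735 to 102 ± 23.1 FPKM, a fold of 7.50. The log2 fold change was 2.79 (SE 0.20, 95% interval 2.30 to 3.29, limma adjusted p = 0.00415), the 15th largest of the genes tested. Without any 1 of the NC libraries the adjusted p was 0.0556 to 0.0615.

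NFKBIE (ENSG00000146232, chr6:44258166-44265788, minus strand) encodes IkB-epsilon, a classical inhibitor that binds RELA and REL dimers and returns later than IkB-alpha after a stimulus. It measured 5.25, 5.10 and 6.30 FPKM in NC cells and 25.7, 59.5 and 49.5 FPKM in treated cells. The groups were well separated, and TNF-α replicate 1 was the lowest treated library in FPKM and in TPM (96.2, against 128 and 121). The mean rose from 5.55 ± 0.649 to 44.9 ± 17.4 FPKM, a fold of 8.09. The log2 fold change was 2.73 (SE 0.31, 95% interval 1.97 to 3.49, limma adjusted p = 0.0202), next in rank to that of NFKBIA. The adjusted p was above 0.05 (at most 0.168) when any 1 library other than TNF-α replicate 1 was left out, as it did with the replicate number as a block (0.0653).

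NFKBIB (ENSG00000104825, chr19:38899700-38908893, plus strand) encodes IkB-beta, a classical inhibitor with slower turnover. It measured 19.5, 17.8 and 20.4 FPKM in NC cells and 28.9, 68.6 and 64.9 FPKM in treated cells. The groups did not overlap, yet replicate 1 lay nearer to the NC libraries than to the other treated libraries. The TPM ran from 69.2 to 76.8 in the NC group and were 108, 148 and 159 in TNF-α replicates 1 to 3. The log2 fold change was 1.35 (SE 0.34, 95% interval 0.53 to 2.17, limma adjusted p = 0.164) and did not pass. In TNF-α replicate 1 alone it was 0.57. Of the exon bases of NFKBIB, 1.72% overlap those of SIRT2 on the opposite strand. Reads of both cannot be told apart there unless strand was used in counting.

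BCL3 (ENSG00000069399, chr19:44747705-44760044, plus strand) encodes a nuclear member that binds p50 and p52 homodimers. It measured 5.79, 5.02 and 5.66 FPKM in NC cells and 11.7, 24.0 and 20.6 FPKM in treated cells. Replicate 1 was the lowest treated library, and it lay above all NC libraries. The TPM ran from 19.6 to 22.3 in the NC group and were 44.0, 51.8 and 50.5 in TNF-α replicates 1 to 3. The mean was 5.49 ± 0.409 FPKM in NC cells and 18.8 ± 6.33 FPKM in treated cells. The log2 fold change was 1.55 (SE 0.26, 95% interval 0.92 to 2.19, limma adjusted p = 0.0705). It missed the threshold, and passed it with an adjusted p of 0.0361 on the TPM scale and 0.0273 after quantile normalization. Of its exon bases, 2.00% overlap those of MIR8085.

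NFKBIZ (ENSG00000144802, chr3:101827991-101861022, plus strand) encodes IkB-zeta, a nuclear cofactor of p50 that is known as an early and short-lived response gene. It measured 1.84, 2.19 and 2.39 FPKM in NC cells and 5.61, 2.09 and 2.34 FPKM in treated cells. TNF-α replicate 1 was the highest of the 6 libraries, while replicates 2 and 3 lay within the NC range. In TPM replicate 1 stood at 21.0, while replicates 2 and 3 at 4.50 and 5.74 lay below the lowest NC library (7.09). The reads behind them were 1064 in replicate 1, 319 and 336 in replicates 2 and 3, and 392 to 454 in the NC group. The log2 fold change was 0.38 (SE 0.30, 95% interval -0.35 to 1.12, limma adjusted p = 0.344), 1.08 in replicate 1 alone and 0.04 without it.

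NFKBID (ENSG00000167604, chr19:35887653-35902303, minus strand) encodes the nuclear member IkB-NS, known mainly from lymphocytes and macrophages. It measured 1.85, 1.96 and 1.90 FPKM in NC cells and 2.09, 4.19 and 3.71 FPKM in treated cells. Replicates 2 and 3 stood above the NC group, and replicate 1 exceeded its highest library by little. The TPM ran from 7.14 to 7.66 in the NC group and were 7.84, 9.03 and 9.09 in TNF-α replicates 1 to 3. The log2 fold change was 0.54 (SE 0.21, 95% interval 0.03 to 1.05, limma adjusted p = 0.195) and turned to -0.093 after the correction for GC content and length. Its values rest on 195 to 347 reads, and 3.47% of its exon bases overlap those of AD000864.1.

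**Figure D2:**
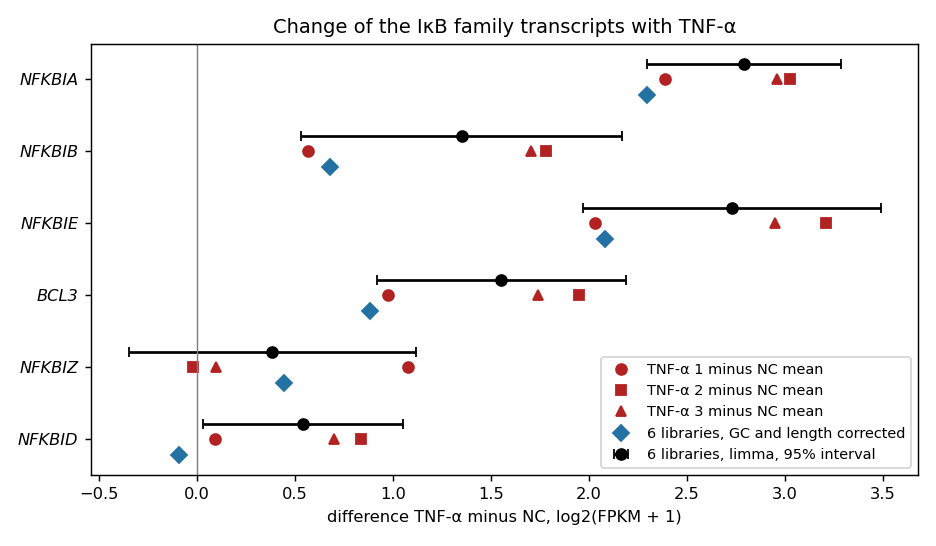
Difference of TNF-α from NC on the log2(FPKM + 1) scale (horizontal axis) for each IkB family gene, with black points for the limma log2 fold change of all 6 libraries and its 95% interval, red symbols for each TNF-α library minus the NC mean, blue diamonds for the fold change after the GC and length correction, and a vertical line at 0. NFKBIA and NFKBIE lie above 2 with every symbol, while TNF-α replicate 1 is the highest red symbol for NFKBIZ (1.08) and the lowest for the other 5 genes, which for NFKBIA does not hold in TPM.

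To see how far the separation of TNF-α replicates 2 and 3 entered these values, the fits were repeated in other versions. After the correction for GC content and length, NFKBIA (2.29, adjusted p = 0.000225), NFKBIE (2.08, 0.000225), BCL3 (0.88, 0.012) and NFKBIB (0.68, 0.0278) passed in limma, hence 4 of 6 as higher against 1.38% of all genes tested. The fitted GC and length term took 0.50 from the log2 difference of NFKBIA and 0.63 to 0.67 from those of NFKBIE, NFKBIB, BCL3 and NFKBID, whose exons hold 61.4% to 65.7% G and C. For NFKBIZ, with 48.5% and the longest exon sequence of the 6 at 5902 bases, the term was -0.06.

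With TNF-α replicate 1 alone against the 3 NC libraries, 5 of 6 genes passed as higher, against 3.7% of all genes tested. The lone library was assumed to vary like the NC libraries. The log2 fold changes were 2.39 for NFKBIA, 2.03 for NFKBIE, 1.08 for NFKBIZ, 0.97 for BCL3 and 0.57 for NFKBIB, with adjusted p from 6.5e-05 to 0.0237. NFKBID did not pass at 0.09 (adjusted p = 0.703). Without TNF-α replicate 1, 5 of 6 passed as well, but 42.6% of all genes tested then passed as higher. These were NFKBIE (3.08), NFKBIA (2.99), BCL3 (1.84), NFKBIB (1.74) and NFKBID (0.77), whereas NFKBIZ was at 0.04 (adjusted p = 0.757). Of the treated libraries, NFKBIZ was highest in replicate 1, whereas NFKBID was lowest there at 2.09 FPKM, still above the highest NC library (1.96). Whether the length and ribosomal differences of these libraries have a part in this was not tested.

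When each library was scaled to the same sum (TPM), the median log2 fold change over all genes tested moved to -0.42. Relative to that median, the log2 fold changes were 2.77 for NFKBIA, 2.79 for NFKBIE, 1.59 for BCL3, 1.30 for NFKBIB, 0.63 for NFKBID and 0.44 for NFKBIZ. Before this centering they were 2.35, 2.38, 1.17, 0.88, 0.21 and 0.03 in the same order. On that scale NFKBIB, NFKBID and NFKBIZ did not pass in limma (adjusted p = 0.158, 0.350 and 0.967).

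The makeup of the family was then compared as each gene's share of the summed FPKM of the 6 genes, a measure per length that does not depend on the library size. The sum was 47.3, 45.3 and 51.1 FPKM in NC cells and 149, 276 and 253 FPKM in treated cells, a fold of 4.72 between the means. Unlike the shares, this sum depends on the scale. The FPKM of all genes summed to 463340 and 408175 in the treated libraries with 276 and 253 FPKM. They summed to 266716 in the other treated library and to 256373 to 265942 in the NC group. The fold of 4.72 and the spread among treated libraries therefore hold for FPKM only. NFKBIA took 27.5%, 29.3% and 28.2% of the sum in the NC group and 50.4%, 42.6% and 44.3% in the TNF-α group. NFKBIB took 40.2% ± 1.07 (SD, n = 3) at rest and 23.3% ± 3.40 after TNF-α. The first and second place among these transcripts thus changed hands between NFKBIB and NFKBIA, both genes of classical members.

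The share of NFKBIE went from 11.6% ± 0.663 to 19.4% ± 2.19. Each nuclear member took a smaller share after TNF-α, 8.23% ± 0.423 against 11.5% ± 0.668 for BCL3, 1.81% ± 1.69 against 4.47% ± 0.507 for NFKBIZ and 1.46% ± 0.0574 against 3.99% ± 0.316 for NFKBID. The groups overlapped for none of the 6 shares, although NFKBIZ in TNF-α replicate 1 (3.76%) was close to the lowest NC library (3.89%). How often shares within other gene sets separate these groups was not computed, so nothing is concluded from this count. All 6 gave p = 0.1 in the exact two-sided permutation test (0.1 after Benjamini-Hochberg adjustment over the 6 shares), the smallest p that 3 against 3 libraries allow. The shares sum to 100% and are not independent of each other.

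**Figure D3:**
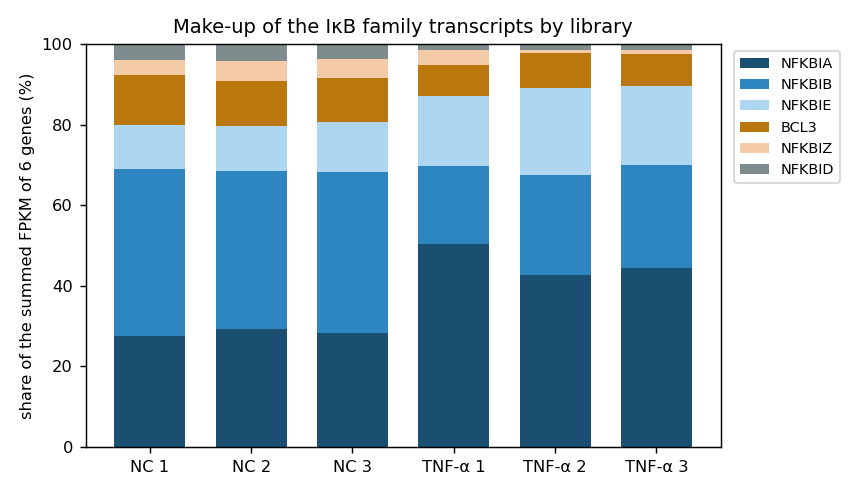
Share of each IkB family gene in the summed FPKM of the 6 genes, in percent, as stacked bars for each of the 3 NC and 3 TNF-α libraries. NFKBIB is the widest band in each NC library (39.2% to 41.3%) and NFKBIA in each TNF-α library (42.6% to 50.4%).

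Inhibitors act by binding NF-kB subunits, so the RNA of each member was set against that of a known partner within the same library. These are ratios of FPKM, and amounts of IkB and NF-kB protein were not measured here. The ratio of NFKBIA to RELA was 0.576, 0.561 and 0.566 in the NC group and 2.49, 2.53 and 2.57 in the TNF-α group. The treated libraries, which differed in the levels of both genes, gave nearly the same ratio, and the mean log2 ratio differed by 2.16 between groups. The ratio of BCL3 to NFKB2, whose p52 product is a partner of BCL3, was 0.341, 0.318 and 0.303 in the NC group and 0.163, 0.160 and 0.160 in the TNF-α group. It was lower in each treated library, by a mean log2 difference of -0.99.

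The ratio of BCL3 to NFKB1 ran from 0.579 to 0.640 in the NC group and was 0.620, 1.70 and 1.41 in the TNF-α group, so the groups overlapped. NFKBIB to RELA ran from 0.750 to 0.864 in the NC group and was 0.955, 1.48 and 1.49 in the TNF-α group, a log2 difference of 0.67. NFKBIZ to NFKB1 and NFKBID to NFKB1 overlapped between groups, with log2 differences of -0.30 and -0.06. The last turned positive when NC replicate 2 (0.02) or TNF-α replicate 1 (0.38) was left out.

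NFKBIE to REL had the widest spread, at 8.48 to 12.1 in the NC group and 27.8, 1451 and 880 in the TNF-α group. REL itself rested on 14 and 18 reads in TNF-α replicates 2 and 3, against 220 to 271 in the NC group and 390 in TNF-α replicate 1, and was below the filter for testing. Of the 7 ratios compared, the groups did not overlap in 4, which were NFKBIA to RELA, NFKBIB to RELA, NFKBIE to REL and BCL3 to NFKB2. How often ratios of other gene pairs separate these groups was not computed, so nothing is concluded from this count. Each of these had p = 0.1 in the exact two-sided permutation test, the smallest possible, and 0.175 after adjustment over the 7 ratios. BCL3 to NFKB1 had an exact p of 0.2, NFKBIZ to NFKB1 of 0.4 and NFKBID to NFKB1 of 1.

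**Figure D4:**
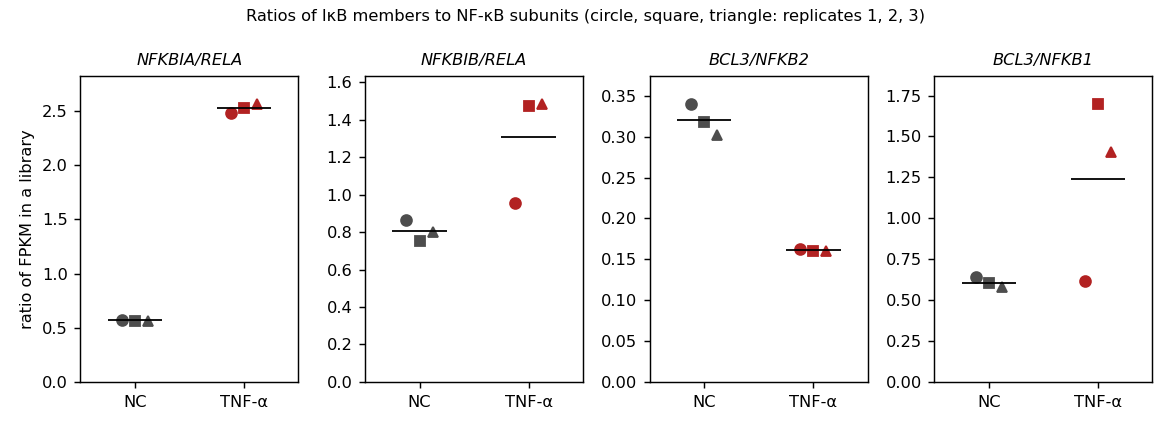
Ratio of FPKM within each library for 4 of the 7 pairs of an IkB family gene and an NF-kB subunit, 1 panel per pair with its own linear axis from 0, dark points for NC, red points for TNF-α and a line at each group mean. The NFKBIA to RELA points form a tight cluster per group (0.561 to 0.576 and 2.49 to 2.57), whereas BCL3 to NFKB1 has TNF-α replicate 1 (0.620) among the NC values.

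The pathway lists were set against all genes tested, of which 0.717% passed as higher and 0.297% as lower, and 12.3% and 11.9% at an unadjusted p under 0.05. Of the 5 genes of the NF-kB subunits themselves, 4 were tested, 2 passed as higher and none as lower in limma, and at an unadjusted p under 0.05 these counts were 4 and 0. Their median log2 fold change was 1.69. The genes of the noncanonical dimer rose, though both calls were lost without any 1 library other than TNF-α replicate 1 (adjusted p up to 0.152 for NFKB2 and 0.151 for RELB). RELB measured 6.31, 5.90 and 8.34 FPKM in NC cells and 46.8, 130 and 105 FPKM in treated cells (log2 fold change 3.48, SE 0.39, limma adjusted p = 0.0185). NFKB2 measured 17.0, 15.8 and 18.7 FPKM in NC cells and 71.9, 150 and 129 FPKM in treated cells (2.63, SE 0.29, adjusted p = 0.0173). Both were lowest in replicate 1 among the treated libraries, as NFKBIE was, in FPKM and in TPM. NFKB1, the precursor of p50, measured 9.05 ± 0.719 and 15.9 ± 2.65 FPKM (0.74, adjusted p = 0.121), and RELA 23.9 ± 1.44 and 40.1 ± 8.66 FPKM (0.70, adjusted p = 0.194).

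Of 11 genes of the IkB kinases and of IkB ubiquitination and degradation, 1 passed as higher and none as lower, with 2 and 0 at an unadjusted p under 0.05. The median log2 fold change was 0.20. The gene that rose was IKBKE, a kinase related to the IkB kinases, which measured 3.52, 4.25 and 5.09 FPKM in NC cells and 12.2, 17.1 and 15.3 FPKM in treated cells (1.59, SE 0.18, limma adjusted p = 0.0197). This call too was lost without any 1 library other than TNF-α replicate 1 (adjusted p up to 0.168) and in TPM (0.0731). The catalytic kinases of the classical complex did not pass, with CHUK at -0.56 (adjusted p = 0.197) and IKBKB at 0.20 (adjusted p = 0.255).

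Of 14 genes of the TNF receptor 1 complex, 1 passed as higher and none as lower, with 6 and 1 at an unadjusted p under 0.05 (12.3% and 11.9% of all genes) and a median log2 fold change of 0.19. In TNF-α replicate 1 alone, the log2 differences of these 6 were 0.15 for TRADD, 0.15 for RBCK1 and 0.035 for SHARPIN. They were 0.40 for TRAF2, 1.06 for BIRC2 and 2.93 for BIRC3. The 1 gene that passed was BIRC3, the ubiquitin ligase cIAP2, at 2.80, 3.06 and 2.87 FPKM in NC cells and 28.7, 16.8 and 17.3 FPKM in treated cells (2.45, SE 0.22, limma adjusted p = 0.00996). TNF-α replicate 1 had its highest value in FPKM and in TPM. The call was lost without any 1 NC library or TNF-α replicate 3 (adjusted p up to 0.108) and in TPM (0.133). The receptor gene TNFRSF1A did not pass, at 0.28 in FPKM (limma adjusted p = 0.354), and its direction depended on the scale. Its treated libraries held 124, 126 and 120 TPM, below the NC libraries at 138 to 149. On that scale the median over all genes tested was -0.42. The difference of TNFRSF1A was -0.17 in TNF-α replicate 1 alone. After the correction for GC content and length it was -0.11 (limma adjusted p = 0.372).

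Of 16 other brakes on NF-kB, 3 passed as higher and none as lower, with 6 and 0 at an unadjusted p under 0.05 (12.3% and 11.9% of all genes) and a median of 0.37. TNIP1, which binds A20, measured 20.5, 20.5 and 23.7 FPKM in NC cells and 100, 191 and 160 FPKM in treated cells (2.70, SE 0.26, limma adjusted p = 0.0112). TNFAIP3, which encodes the ubiquitin-editing enzyme A20, measured 4.14, 3.44 and 4.22 FPKM in NC cells and 57.6, 18.9 and 26.8 FPKM in treated cells (2.70, SE 0.39, adjusted p = 0.0421). Like NFKBIZ and BIRC3, it was highest in TNF-α replicate 1, in FPKM and in TPM. ZC3H12A, an endonuclease that degrades inflammatory transcripts, measured 3.52, 3.44 and 4.21 FPKM in NC cells and 10.1, 11.0 and 11.8 FPKM in treated cells (1.34, SE 0.13, adjusted p = 0.0116), and was at 0.72 (adjusted p = 0.143) after the correction for GC content and length. The calls of TNIP1 and TNFAIP3 were lost without any 1 NC library or TNF-α replicate 3 (adjusted p up to 0.125 and 0.276), and that of ZC3H12A without any 1 library other than TNF-α replicate 1 (up to 0.139). In TPM, TNFAIP3 (0.178) and ZC3H12A (0.173) did not pass.

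Because IkB-zeta is known to be needed for a set of inflammatory genes in other cells, 11 such genes were listed, of which 3 passed the filter for testing. CSF2 and IL6 entered the test only through the TNF-α libraries, which fixed their direction, so no count is given for this list. The chemokine gene CCL2 measured 1.94, 2.09 and 2.12 FPKM in NC cells and 81.7, 145 and 151 FPKM in treated cells (log2 fold change 5.33, limma adjusted p = 0.000833, and at most 0.0196 with any 1 library left out). The cytokine gene CSF2 measured 0.0703, 0 and 0.396 FPKM in NC replicates 1 to 3 (2, 0 and 10 reads) and 9.09, 15.0 and 17.6 FPKM after TNF-α. IL6 measured 0.522, 0.663 and 0.271 FPKM and then 1.44, 1.53 and 1.49 FPKM. Both are given as levels, without a test. Among the treated libraries CCL2 was lowest in replicate 1, where NFKBIZ was highest. In TPM (306, 313 and 370) its values in replicates 1 and 2 lay close together. The 3 tested genes of this list did not share 1 order in TPM. IL6 was highest in replicate 1, as NFKBIZ was, and CSF2 was lowest in replicate 2. Whether any of these genes follows NFKBIZ was not tested. IL12B, DEFB4A and S100A8 were listed at 0 in all 6 libraries.

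The genes most like each member were named by Pearson's r of log2(FPKM + 1) over the 6 libraries, as a description, since these points share group, depth and the composition described above. For NFKBIA they were HBEGF, CCL2 and C1QTNF1, each with r = 0.999. For NFKBIE the nearest genes were RELB and NFKB2, both with r of 1.00 after rounding, then LAYN with 0.999. For NFKBIB they were PSMB10, HLA-F and WNT5B, and for BCL3 they were PLEKHO2, MSANTD3 and ETV4. For NFKBID they were DHRS4L2, TMEM14B and RHOG. The nearest genes to NFKBIZ were RASA3 (r = 0.991), SMAD3 (0.989) and GSAP (0.987). An r above 0.95 was shared with 287 genes by NFKBIA, 452 by NFKBIE, 698 by BCL3, 2002 by NFKBIB, 3259 by NFKBID and 30 by NFKBIZ.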

How the data were processed

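RNA-seq libraries of oligo(dT)-selected RNA from U251 cells were grouped by their titles. Per the labels and file headers, the authors deposited FPKM per gene and library with gene lengths. The submitters' processing notes name HISAT2 2.0.5, featureCounts 1.5.0 and StringTie 1.3.3b without their roles, and the use of strand in counting was not given in the sources used here. All 58735 genes and lengths matched GENCODE release 29 (GRCh38). FPKM times length gave whole reads (tolerance 0.001) for 100% of values, 31992167 to 37897044 per library. A further 6 columns matched no sample described here and were not used.

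Genes with FPKM of at least 1 in at least 3 libraries were tested on log2(FPKM + 1) with limma 3.58.1 in R 4.3.3 (lmFit, eBayes with trend, two-sided) and Benjamini-Hochberg adjustment. This scale understates changes of low genes. The GC and length correction subtracted splines with 5 degrees of freedom from each library's log2 ratio to the mean of all libraries, for 12131 genes. Ratios and shares were compared by exact permutation with scipy 1.17.1. The code was checked on simulated data. Named genes were the 6 members, the subunits, up to 5 members of each list past the threshold, and the 3 genes most like each member, to which some untested or uncalled pathway genes were added after their values were seen. The members and lists were chosen with earlier results of these data known. Same-numbered libraries had deviations from their group means correlated at -0.014, -0.178 and 0.124, so the numbers were not taken as pairs. The motif bases of 1 member and the level of 1 marker are not reported here.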

Additional observations from a re-analysis of the deposited data

How the results depend on the processing

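Counting error is small for the 6 genes (195 to 7242 reads), and the spread among the 3 TNF-α libraries limits precision. All changes here are limma log2 fold changes. NFKBIA stayed between 2.29 and 2.99 and passed in 13 of 16 alternatives, ranging from 2.67 to 2.99 when 1 library was left out, NFKBIE in 9 of 16 (2.49 to 3.08), BCL3 in 5 of 16 (1.36 to 1.84), NFKBIB in 3 of 16 (1.14 to 1.74), NFKBID in 1 of 15 (0.39 to 0.77) and NFKBIZ in 1 of 15. NFKBIE did not pass at 2.73 without a filter (adjusted p = 0.0643) or with the replicate block (2.73, adjusted p = 0.0653). After the GC and length correction NFKBIB (0.68) and BCL3 (0.88) passed and NFKBID turned to -0.093. In TNF-α replicate 1 alone NFKBIB (0.57), BCL3 (0.97) and NFKBIZ (1.08) passed, and BCL3 also passed with TPM (1.17) and quantile normalization (1.46). The members passing numbered 1 without a filter and 1 with the replicate block, 3 with TPM and 3 with quantile normalization. Of all genes tested, 0.18%, 0.20%, 0.48% and 1.52% passed in these versions, in either direction. After the GC and length correction 4 members passed, against 2.23% of all genes. With 1 library left out 0 to 5 members passed, against 0.082% to 79.4% of all genes. Where 0 members passed, without any 1 NC library, 4 passed at an unadjusted p under 0.05, as did 8.06% to 9.11% of all genes.

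With 1 library left out, the subunits passing numbered 0 to 4 (4 at an unadjusted p under 0.05). The kinase and degradation genes numbered 0 to 10 (2 to 10) and the other brakes 0 to 14 (3 to 14). For the TNF receptor 1 complex the range was 0 to 11 (3 to 11). The IkB-zeta list is not counted, since the filter fixed the direction of CSF2 and IL6. Of all genes tested, 0.082% to 0.346% passed in either direction without any 1 library other than TNF-α replicate 1, and 79.4% without that library. At an unadjusted p under 0.05, these shares were 7.47% to 9.11% and 80.7%. The highest count of each list came without TNF-α replicate 1. After the GC and length correction the receptor complex gave 2 and the subunits 3, where 2.23% of all genes passed in either direction. Over all genes, 87 were higher and 36 lower, against 23 and 1 with the replicate block, 43 and 15 without a filter, 42 and 16 with TPM, 131 and 54 with quantile normalization, 167 and 103 after the GC and length correction, 449 and 283 in TNF-α replicate 1 alone, 5169 and 4461 without it, and 84 and 25 with limma-voom on the recovered reads. The NFKBID to NFKB1 ratio ran from -0.33 to 0.38 with 1 library left out. From reads, not per length, the shares of NFKBIB, NFKBID and NFKBIZ differed by -13.7, -2.95 and -5.73 percentage points. The cause of these changes was not tested.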
